A study of Caenorhabditis elegans with 2 samples.

Results

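Collagen genes of Caenorhabditis elegans were examined for peaks of the chromodomain protein CEC-7 in chromatin of whole worms. The genes were chosen by name: the numbered col genes and the collagen genes known from body shape mutants (dpy, rol, sqt, bli, lon and ram). Of 177 entries that matched, 3 (col-66, col-136 and col-182) are annotated as pseudogenes, which leaves 174 of 19971 protein-coding genes on the 6 nuclear chromosomes, 156 col genes and 18 shape genes. The name ram-4 matched no entry. A gene was called bound when a peak overlapped its annotated body or the 500 bp on either side. The chromatin came from young adult hermaphrodites with a germline, of genotype fem-2(b245)III, kept at 20 degrees Celsius. The study has 1 library precipitated with a polyclonal antibody raised in rabbit against CEC-7 and 1 library of input DNA from the same strain. The peak list of the first was analysed, and no values of the input were analysed here. Every animal carries the fem-2 allele, so there is no wild type and no sample without CEC-7 to set against it. Both libraries are labelled replicate 2, and no other replicate is among the samples. With 1 library there is no error between replicates, and all intervals below are exact binomial 95% intervals that cover counting error only.

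The cuticle of C. elegans is an extracellular coat built mostly of collagens, short proteins with Gly-X-Y repeats that the epidermis makes and secretes anew at each moult. Procollagen chains are hydroxylated and folded in the endoplasmic reticulum, exported, cleaved and cross-linked. Loss of single collagens changes body shape, which gave the genes their names: dumpy (dpy), roller (rol), squat (sqt), blistered (bli) and long (lon). Adults with a germline hold many germ cell nuclei beside the epidermis, and the chromatin was from whole animals. A peak therefore cannot be assigned to a tissue, and weak binding in many cells and strong binding in few cannot be told apart.

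Few collagen genes had a CEC-7 peak. Of the 174 genes, 12 were bound, 6.90% (interval 3.61 to 11.7%), whereas 3489 of 19797 other protein-coding genes were bound, 17.6% (17.1 to 18.2%). The bound genes were col-48, col-52 and col-53 on chromosome I, bli-2, col-74 and col-84 on II, dpy-17 on III, and col-111, col-119, col-121, col-123 and col-132 on IV. They met 14 of the 2767 peaks in the list, 0.506%. None of the 3 pseudogenes was bound. Because peaks are unevenly spread over chromosomes, each collagen gene was also given the bound share of the other protein-coding genes on its own chromosome. These shares add up to 28.2 genes, so the 12 observed were 0.426 of that sum. Leaving out X, 12 of 144 collagen genes were bound, 8.33% (4.38 to 14.1%), beside 20.4% of the other genes on the 5 autosomes. No test of the list was made, since its genes lie in groups and were picked with results of these peaks known.

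The bound share of collagen genes was below that of the other genes on each of the 5 autosomes. On chromosome III, 1 of 13 collagen genes was bound, 7.69% (0.195 to 36%), and 37.3% of the other genes. Chromosome I had 3 of 23 bound, 13% (2.78 to 33.6%), beside 29.7% of other genes. On II the counts were 3 of 31, 9.68% (2.04 to 25.8%), beside 21.4%. Chromosome IV came closest, with 5 of 44 bound, 11.4% (3.79 to 24.6%), beside 16.2%. None of the 33 collagen genes on V was bound (exact interval 0 to 10.6%, and 3 counts, the floor used for a count of 0, would be 9.09%), beside 8.08% of other genes there. None of the 30 on X was bound (0 to 11.6%, floor 10.0%), beside 0.185% of other genes. On X the shares of other genes add up to 0.0556 genes, so a count of 0 there carries no information on collagen genes. The interval of the collagen genes held the share of the other genes on I, II, IV, V and X. On III its upper end, 36%, was just under the 37.3% of other genes, but 5 of the 13 genes there lie in 2 runs of neighbours and the interval counts them as independent.

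**Figure D1:**
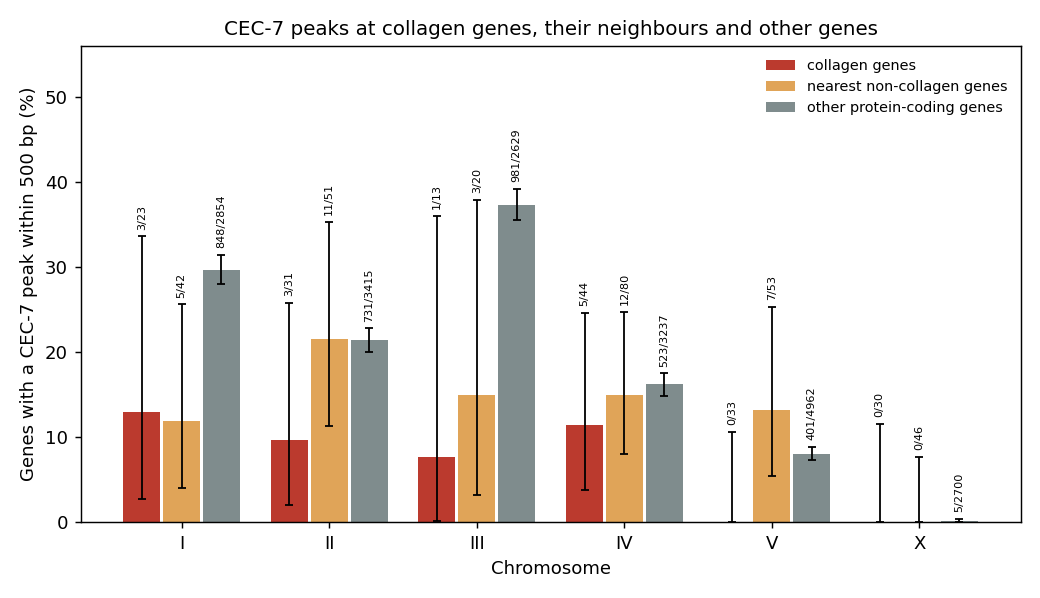
Share of genes with a CEC-7 peak within 500 bp (y axis, percent) on each chromosome (x axis) for collagen genes, the nearest non-collagen genes on either side of them, and all other protein-coding genes; error bars are exact binomial 95% intervals and the fractions give bound genes of all genes. Genes that overlap a collagen gene are not counted as its nearest genes. Collagen genes lie below the other protein-coding genes on the 5 autosomes, with 0 of 33 on V, and on X 0 of 30 collagen genes and 5 of 2700 other genes were bound.

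The shape genes were first read by role. Furrow collagens form the circular grooves of the cuticle between body rings. Their 6 genes, dpy-2, dpy-3, dpy-7, dpy-8, dpy-9 and dpy-10, were all unbound (0 to 45.9%, floor 50.0%), and the same-chromosome shares add up to 0.595 genes. The nearest peak was 13.3 kb from dpy-9, 18 kb from dpy-10 and 19.2 kb from dpy-2. On X it was 141 kb from dpy-3, 175 kb from dpy-7 and 2200 kb from dpy-8. None of the 6 therefore lay near the 500 bp limit.

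Of the 12 other shape genes, 2 were bound, bli-2 and dpy-17, with same-chromosome shares adding up to 2.52 genes. bli-2 is needed for the struts that join the layers of the adult cuticle, and its loss separates the layers into blisters. Its whole body of 1041 bp lay in the peak II 5649921 to 5652471, score 191.99. The score is the authors' own value for a peak, its scale is not stated in the deposited list, and it serves here to rank peaks within that list only. This score is above that of 67.2% of all peaks. The same peak lay entirely within zyg-1, the kinase gene of centriole duplication, in whose body bli-2 is placed.

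dpy-17, whose loss makes worms short and stout, was called bound only through its flank. The peak III 5102829 to 5106980 (score 301.78) ended 350 bp from the gene, and 96.2% of it lay on the neighbouring gene F54D8.6. No base of dpy-17 was in a peak. bli-1, the partner of bli-2 in the struts, was 66.1 kb from the nearest peak. The essential collagen gene sqt-3 was 35.2 kb away, sqt-1 8.53 kb, sqt-2 19.7 kb and rol-6 7.54 kb. The dumpy genes dpy-5, dpy-13 and dpy-4 lay 2.85, 11.4 and 39.1 kb from a peak. lon-3, whose loss lengthens the body, lay 3.20 kb from one. The shape genes as a whole, at 2 of 18 (11.1%, 1.38 to 34.7%), and the numbered col genes, at 10 of 156 (6.41%, 3.12 to 11.5%), had overlapping intervals.

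The bound collagen genes mostly shared their peak with another gene. Only col-52 had no other protein-coding gene body in its peak, 1 of 12 (8.33%, 0.211 to 38.5%), compared with 1109 of the 3489 other bound genes (31.8%, 30.2 to 33.4%). A gene wholly inside another cannot be alone in a peak on its body. So placed were 6 of the 12 and 105 of the 3489 others, so gene layout enters this contrast. The peak of col-52, I 4572904 to 4574772, was 1869 bp wide, near the median of 1987 bp over all peaks. It was weak, with a score of 63.76 above that of 14.6% of peaks. All of this peak lay on col-52, and it covered 48.6% of the 3847 bp of the gene.

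Of the 12 bound genes, 6 lay wholly inside the annotated body of a longer gene. The gene table gives no exons, so whether they sit in introns was not analysed here. col-119 had the highest score of any bound collagen gene, 941.23, rank 29 in the list. Its 870 bp took up 14.4% of the peak IV 8978560 to 8984582, and the surrounding gene pdzd-8 held 6020 of its 6023 bp. col-84 lay in npp-3, which encodes a nuclear pore protein, under the peak II 11867855 to 11873930 (score 308.90). The collagen gene made up 18.9% of that peak and npp-3 all of it. In both cases the collagen gene was a small part of a peak that lay on its host.

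col-48 lay in mek-2, the MAP kinase kinase gene of Ras signalling. The peak I 3009103 to 3013489 (score 296.10) covered all of col-48, which made up 22.4% of it, and mek-2 made up 99.1%. col-123 lay in catp-6, a gene of a P-type ATPase, and was covered in full by the peak IV 9821501 to 9823501 (score 93.15). A second, higher peak, IV 9818468 to 9821480 (209.36), reached only its flank, 441 bp away, and gave col-123 its highest score. col-74 lay in gtap-1. Most of its body, 1547 of 1649 bp, was in the peak II 5830476 to 5832882 (92.39). The higher peak II 5824005 to 5830387 (641.05) covered 14 bp of it, fewer than the difference between genome builds can amount to, and had most of its bases on tbc-2, a Rab GTPase-activating protein gene.

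Next to these, 2 genes were partly covered by a peak that ran on into the next gene. col-53 had 573 bp, 34.9% of its body, in the peak I 5645798 to 5652848 (score 337.61), which covered F55F8.2 in full and most of F55F8.3. col-111 had 49.2% of its body in the peak IV 4654593 to 4656865 (71.63), and psr-1, a receptor gene for the engulfment of dying cells, held 55.3% of that peak. The remaining 3 bound genes, dpy-17, col-121 and col-132, had a peak in the flank only. col-121 lay 392 bp from the peak IV 9387167 to 9394562 (52.80), which was entirely on daf-15, the gene of the TORC1 subunit Raptor. col-132 lay 366 bp from the peak IV 13091433 to 13092649 (57.05), which was entirely on prcc-1. A peak in the flank only thus stood for 3 of 12 bound collagen genes (25%, 5.49 to 57.2%) and 481 of 3489 other bound genes (13.8%, 12.7 to 15.0%).

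**Figure D2:**
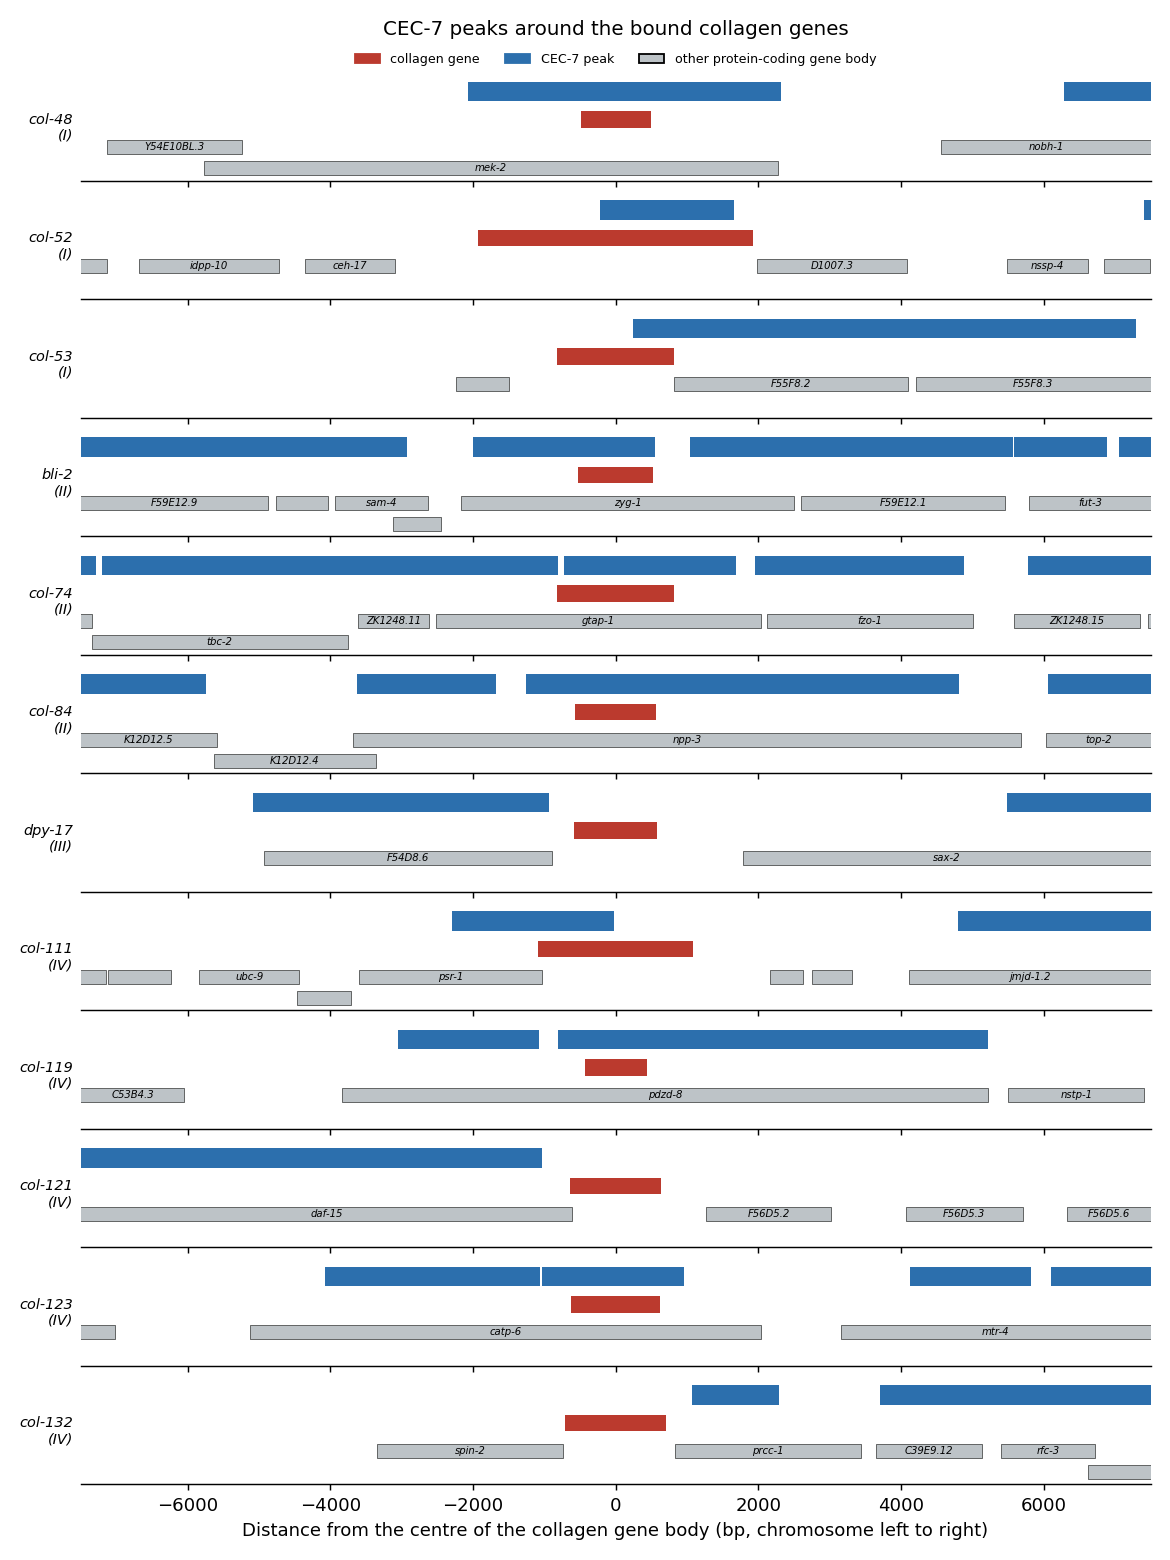
Map of the 12 bound collagen genes, 1 per row with the chromosome in brackets; the x axis is the distance in bp from the centre of the collagen gene body, red boxes are the collagen gene, blue boxes CEC-7 peaks and grey boxes other protein-coding gene bodies. Peaks and genes come from different builds, whose positions differ by about 100 bp at most. Only the peak of col-52 has no grey gene under it, and dpy-17, col-121 and col-132 lie beside a peak without touching it.

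Bound shares were next compared by the place of a gene relative to others. Of all 174, 26 (14.9%) lay wholly inside another protein-coding gene, against 665 of 19797 other genes (3.36%). Among these 26, 6 were bound, 23.1% (8.97 to 43.6%), and among 665 other genes inside another gene 105 were bound, 15.8% (13.1 to 18.8%). Of the 148 collagen genes not wholly inside another gene 6 were bound, 4.05% (1.5 to 8.61%), and 17.7% of the other genes so placed. Restricted to genes whose body overlapped no other gene, the counts were 3 of 113 collagen genes, 2.65% (0.551 to 7.56%), and 2195 of 14793 other genes, 14.8% (14.3 to 15.4%). These 3 were col-52, dpy-17 and col-132.

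All 6 bound collagen genes inside another gene had a host that was itself bound, as the rule requires, since a peak near the inner gene is also near its host. In all, 8 of the 26 lay in a bound host, and 6 of these 8 were bound (75.0%, 34.9 to 96.8%). For other genes inside a bound gene the share was 105 of 213, 49.3% (42.4 to 56.2%). The hosts were covered by peaks over 85.8% of zyg-1, 85.8% of npp-3, 88.3% of pdzd-8, 92.0% of gtap-1, 69.9% of catp-6 and 54.0% of mek-2. The 2 collagen genes without a peak in a bound host were col-124 in qns-1, 1711 bp from the nearest peak, and lon-3 in ogdh-2.

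Collagen genes often lie side by side. With no other protein-coding gene starting between them, 48 of the 174 stood next to another collagen gene, in 20 runs of 2 to 5. None of these 48 was bound (0 to 7.40%, floor 6.25%), where same-chromosome shares add up to 7.35 genes. Among the 126 that stood singly 12 were bound, 9.52% (5.02 to 16.0%), with shares adding up to 20.8. Members of a run share their place on the chromosome and are not independent. The longest run, col-167 to col-171 on X, was more than 1000 kb from the nearest peak. A run of 4 on II (col-79, col-39, col-80 and bli-1), all within dph-2, lay 66.1 to 73.7 kb from one. The runs nearest to a peak were dpy-13 with col-34, at 3.53 to 11.4 kb, and col-104 with col-105, at 3.71 to 7.81 kb.

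With all chromosomes pooled, the median distance to the nearest peak was close in both sets of genes, while the spread around it differed. It was 21.3 kb (quartiles 7.61 and 69.0 kb) over all collagen genes and 20.8 kb (2.70 and 83.9 kb) for other protein-coding genes. The lower quartile was the larger in collagen genes, and the upper quartile the smaller. By chromosome, the medians of collagen and other genes were 15.7 and 4.8 kb on I and 22.4 and 2.7 kb on III. They were 11.2 and 14.2 kb on II, 16.6 and 15.6 kb on IV, and 20.4 and 38.7 kb on V. On X they were 1050 and 1400 kb. On the 5 autosomes 23.6% of collagen genes lay within 5 kb of a peak, where the same-chromosome shares of other genes average 33.9%. Within 20 kb the shares were 56.9% and 56.4%, and within 100 kb 96.5% and 89.0%. With the autosomes pooled, the gap thus lay at short distances, but single chromosomes differed. Within 20 kb lay 60.9% of collagen genes and 73.2% of other genes on I, and 38.5% and 83.2% on III. The shares were 74.2% and 57.2% on II, 54.5% and 56.2% on IV, and 48.5% and 33.7% on V.

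**Figure D3:**
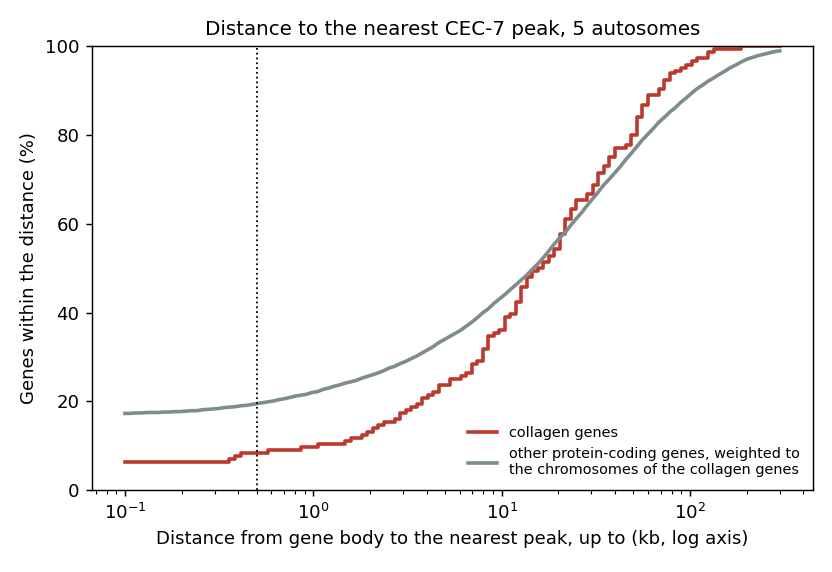
Cumulative share of autosomal genes (y axis, percent) whose nearest CEC-7 peak lies within a given distance of the gene body (x axis, kb, log scale), for collagen genes (red) and for other protein-coding genes weighted to the same chromosomes (grey); the dotted line marks 0.5 kb. The red line runs below the grey at short distances, 23.6% against 33.9% at 5 kb, meets it near 20 kb and lies above it at 100 kb, 96.5% against 89.0%.

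The 5 unbound collagen genes nearest to a peak show where the limit of 500 bp falls. Just inside it lay dpy-17, col-132 and col-121, at 350, 366 and 392 bp. Just outside lay col-86 at 570 bp from the peak II 13098845 to 13100790 (score 126.52), which was on rict-1, the gene of the TORC2 subunit Rictor. dpy-14, a collagen gene needed in the embryo, lay 861 bp from a strong peak, I 6838680 to 6842728 (494.96), on dpf-3. col-2 lay 990 bp from the peak IV 10086441 to 10088629 (135.56), mostly on the kinetochore gene ndc-80. On V, col-147 lay 1467 bp from the peak V 9634805 to 9636104 (67.08) on atl-1, a DNA damage checkpoint kinase gene, and col-161 lay 1532 bp from the peak V 13313791 to 13315497 (64.24) on C50B6.3. In all 5 cases another gene had bases in the peak, and the collagen gene had none because unbound genes were chosen.

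The genes beside the collagen genes had a bound share between those of the collagen genes and of other genes. A gene that overlaps a collagen gene, such as a host, was not counted as lying beside it. The body of 61 of the 174 collagen genes overlaps another protein-coding gene. The nearest non-collagen genes to the left and right numbered 292, and 38 of them were bound, 13% (9.38 to 17.4%), where same-chromosome shares add up to 48.2 genes. This interval overlaps that of the collagen genes, and a peak that reaches both counts for each. Of the 162 unbound collagen genes, 23 (14.2%) had at least 1 bound gene beside them and 2 had bound genes on both sides. On II 11 of 51 neighbours were bound, 21.6%, close to the 21.4% of other genes of that chromosome. On III 3 of 20 neighbours were bound, 15.0% (3.21 to 37.9%), below the 37.3% there, and on I 5 of 42, 11.9% (3.98 to 25.6%), below 29.7%. On I and III, therefore, the neighbours of collagen genes were also below the chromosome, although the interval on III includes the chromosome's share.

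Body length and position were also compared. Collagen genes are short, with a median body of 1220 bp, and other protein-coding genes had 2021 bp. Among other genes of 3000 bp or less 13.8% were bound, and by these shares, taken per chromosome, 22.2 collagen genes would be bound. The cut does not equalise length: these other genes had a median body of 1482.5 bp, and collagen genes of 3000 bp or less 1190 bp. With each chromosome divided into a left, a central and a right part of equal length, 3 of 44 collagen genes in the left parts were bound (6.82%, other genes 12.5%), 7 of 91 in the centres (7.69%, others 23.8%) and 2 of 39 in the right parts (5.13%, others 15.3%). Other genes were bound most often in the centres, where 91 of the 174 collagen genes lie. The collagen shares of the 3 parts did not differ beyond their intervals, which run from 0.627 to 18.7%.

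The scores at bound collagen genes were widely spread. The highest score at the 12 bound genes lay between 52.80 and 941.23, with a median of 253 and quartiles of 69.7 and 316. For other bound genes of chromosomes I to IV the median was 184 (quartiles 99.4 and 362). On chromosome IV, which holds 5 of the 12, the median was 71.6 at collagen genes and 138 at other bound genes. The order was reversed on the others: 296 (n = 3) and 177 on I, 309 (n = 3) and 197 on II, and 302 (n = 1) and 215 on III. The 12 scores fell into a lower set of 4, col-121, col-132, col-52 and col-111, between 52.80 and 71.63, and 8 from 191.99 upward. This split depends on taking the highest peak within 500 bp. Most of the body of col-74 lay in a peak scoring 92.39, and all of col-123 in a peak scoring 93.15, both between the sets. The median width of the highest peaks was 4269.5 bp at collagen genes and 2670 bp at other bound genes. A score belongs to the whole peak and is shared by every gene that the peak meets.

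**Figure D4:**
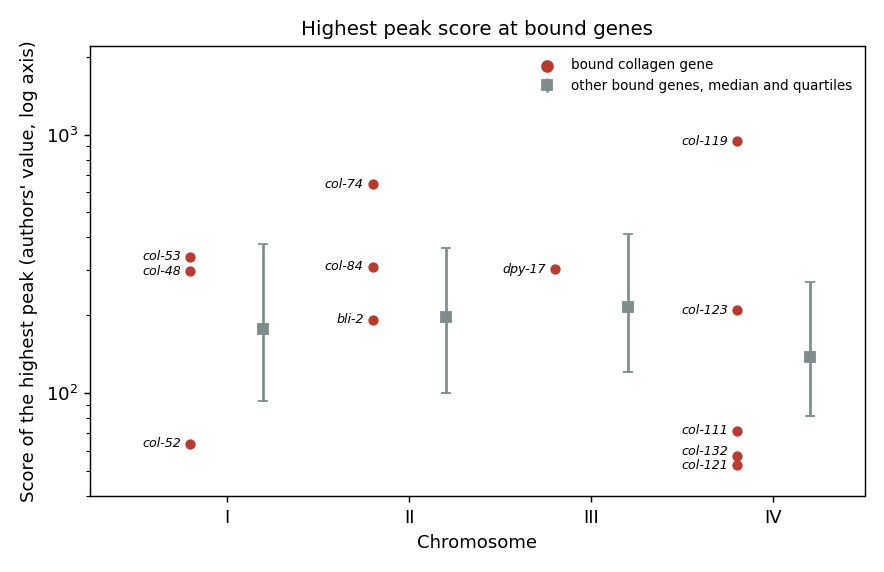
Score of the highest peak at each bound gene (y axis, the authors' value, log scale) on chromosomes I to IV (x axis); red points are the 12 bound collagen genes, grey squares the median of other bound genes with quartiles as bars. col-119 is highest at 941.23, and 4 collagen genes lie between 52.80 and 71.63.

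The genes that process and secrete collagens had the highest bound share of the lists compared. The list of procollagen processing and secretion genes had 9 of 24 bound, 37.5% (18.8 to 59.4%), with same-chromosome shares adding up to 5.21 genes. The mean of these shares lies within the interval of the list, so an excess over the chromosomes is not shown. Those bound included tmem-131 (highest score 162.83, body covered in full) and tmem-39 (134.93), which encode membrane proteins needed to secrete collagen. The COPII coat genes sec-24.1 (405.67) and sec-24.2 (273.64), which serve export from the endoplasmic reticulum, were bound over 94.7% and 79.0% of their bodies. The disulfide isomerase genes pdi-1 (153.17) and pdi-3 (82.15), the calreticulin gene crt-1 (120.78) and the thioredoxin-like gene dpy-11 (74.85) were bound as well. So was bli-4 (232.50), the gene of a protease that cleaves procollagens. These genes have a median body of 4544 bp and serve other secreted proteins too, so they differ from collagen genes in more than their product.

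The other lists were closer to the collagens or too small to tell. Of 47 genes for non-collagen cuticle and apical matrix proteins 3 were bound, 6.38% (1.34 to 17.5%), with shares adding up to 8.53 genes. They were the cuticlin-like genes cutl-14 (346.52), cutl-4 (186.73) and cutl-15 (63.59), the last through its flank only. Of 11 basement membrane genes 1 was bound, 9.09% (0.230 to 41.3%), where same-chromosome shares add up to 1.75 genes. It was cle-1, a collagen gene of the type XV and XVIII kind, with 1.92% of its body in peaks. The genes of type IV collagen, emb-9 and let-2, were not bound. Of 16 regulators of the epidermis and of body size 3 were bound, 18.8% (4.05 to 45.6%), near the sum of same-chromosome shares of 3.30 genes. These were sma-2, a Smad gene of the body size pathway (467.33), nhr-23, a nuclear receptor gene of moulting (100.80), and lin-29, a zinc finger gene of the switch to the adult epidermis (63.14).

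**Figure D5:**
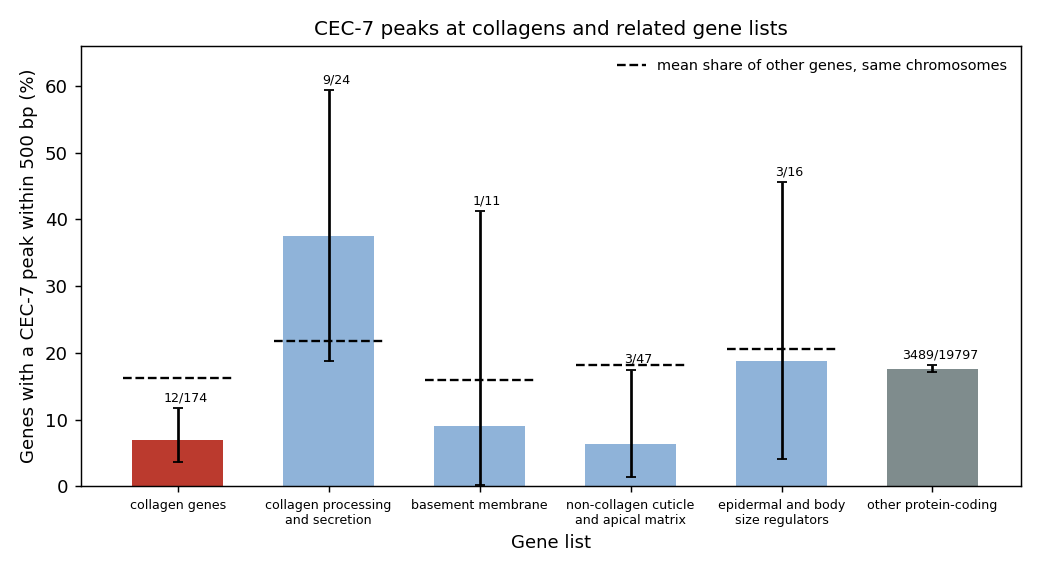
Share of genes with a CEC-7 peak within 500 bp (y axis, percent) for the collagen genes, 4 related gene lists and all other protein-coding genes (x axis); error bars are exact binomial 95% intervals, fractions give bound genes of all genes, and dashed lines the mean share of other genes on the same chromosomes. Collagen genes (6.90%) and the non-collagen cuticle list (6.38%) lie below their dashed lines, as do, with wide intervals, the basement membrane list (9.09%) and the regulators (18.8%). The processing and secretion list (37.5%) lies above its line, also with a wide interval, which includes the line.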

How the data were processed

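ChIP-seq peaks of 1 library of CEC-7 (fem-2(b245) young adults) were used as deposited. Peaks were called with MACS on build WS220 of WormBase, per the file headers. Per the submitters' processing notes BWA and build ce10 were used. MACS settings, its control and the depth are not stated in the labels or the list. The score of each peak is the authors' deposited value, from 50.02 to 1951.83.

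Gene bodies came from the RefSeq table of WBcel235, a different build, whose positions differ by about 100 bp at most from those of the peaks according to the rule that defined the genes. No gene coordinates are printed, and all distances carry this error. Strand and exons were not in the table, so gene starts were not analysed. Overlap needed at least 1 base. Members and lists were chosen with earlier results of these data known. Every bound collagen gene is named, all shape genes, the 5 nearest unbound genes and every bound gene of other lists. Runs of adjacent collagen genes, hosts of the inner genes and neighbours in peaks were named after their values were seen. Other lists matched in full (24, 11, 47 and 16 genes). Overlap code was tested on simulated data. Computations ran in Python 3.11.15 with SciPy 1.17.1, pandas 2.3.3 and NumPy 2.4.6, and matplotlib 3.10.9 drew the figures.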

Additional observations from a re-analysis of the deposited data

How the results depend on the processing

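In every alternative run, fewer collagen genes were bound than the sum of same-chromosome shares. The 26 collagen genes inside another gene were not run alone as an alternative. Of these, 6 were bound, where same-chromosome shares add up to 5.29 genes. The ratio of bound collagen genes to the sum of same-chromosome shares, 0.426 as reported, was 0.371 with no flank, 0.440 and 0.450 with flanks of 400 and 600 bp, which span the difference between builds, and 0.472 with 1000 bp. It was 0.456 with the 50% of peaks of highest score, 0.540 against other genes of 3000 bp or less, 0.383 against other genes of the same part of the chromosome (left, centre or right) and 0.537 against the nearest neighbours, which was chosen after the data were seen. These neighbours leave out genes that overlap the collagen gene. Among the autosomes, only on chromosome I were collagen genes not below their nearest neighbours (13% and 11.9%). On X both shares were 0%. With numbered col genes only the ratio was 0.399, and with shape genes only, 2 of 18, it was 0.642. The flank of 600 bp added col-86. The bound share of collagen genes dropped to 3.45% when at least 50% of the body had to be covered (other genes 9.56%). On III the share was 0% both without a flank and with that cover, since dpy-17 is its single bound gene. Settings chosen after the data were seen gave 2.65% (ratio 0.207) for genes that overlap no other gene and 0.575% (ratio 0.108) when no other gene body was in the peak. The last setting depends on gene layout, since a peak on a gene inside another always meets its host. Collagen genes lie inside another gene more often than other genes, 14.9% against 3.36%. The 2 alternatives that need gene starts were not run, for want of strand. No paired analysis was possible because a single ChIP list was analysed. The unknown depth is a limit to the calls: sites below the caller's limit are not in the list, and no replicate shows how far calls at 12 genes would repeat.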

Other observations

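On chromosome V the collagen genes lay nearer to peaks than other genes did and yet none was bound. Their median distance to a peak was 20.4 kb (n = 33) against 38.7 kb for other protein-coding genes, and 8 of the 33 lay within 5 kb against 15.8% of other genes. None of them came within 1 kb, where 9.39% of other genes did. Of the 53 nearest non-collagen genes on V 7 were bound, 13.2% (5.48 to 25.3%), compared with 8.08% of all other genes there. The cause was not tested, and the exact interval of 0 of 33 runs to 10.6% (3 counts would be 9.09%). This comparison was made after the values were seen and takes no account of position along V. Most collagen genes on V lie in its central part. Over all chromosomes, the median distance of other genes was 9.45 kb in the central parts, 33 kb in the left and 31.3 kb in the right parts.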
